A study of Homo sapiens with 2 samples.

Results

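The genes described here are those transcribed from mitochondrial DNA. They are every gene whose symbol starts with MT- in the authors' deposited table of genes called changed after ezetimibe in SNU-449, an established line of human liver cancer cells. They were thus selected on their symbol and on the authors' call of a change between the libraries measured. There were 10 such genes among the 2238 distinct genes of that table: 9 messenger RNAs and the ribosomal RNA MT-RNR1. The control group was 1 library of SNU-449 cells labelled control, and the ezetimibe group was 1 library of the same line after 24 h of ezetimibe, a drug that lowers cholesterol by blocking NPC1L1, a sterol transporter. Total RNA was used for both, and the cells were grown in serum-containing medium. No dose is given in the labels, and no vehicle is named for the control. With 1 library a group there is no replicate, so every count below describes these 2 libraries and carries no test.

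For each KEGG pathway the table names the genes that the authors called changed and puts each in an up list or a down list. It gives no level, fold change or p-value per gene, and the sequencing depth is unknown. The comparison names ezetimibe first, and up is taken to mean higher in the ezetimibe library; no value per library was at hand to check this. A gene can be missing from the lists because it did not pass the authors' criteria, because it was not detected, or because no KEGG pathway holds it. Liver identity could be read only through listed genes. Of 10 hepatocyte markers, CPS1, FGA, FGB and FGG were listed, all as down, and their levels are unknown. The others, ALB, APOA1, APOB, HNF4A, SERPINA1 and TTR, were not listed. Over all genes, 25.2% of the background pathway genes were listed, and 67.5% of the listed genes were down.

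Mitochondrial DNA is a small circle held in many copies per cell. It encodes core subunits of the respiratory chain, which moves electrons to oxygen and drives ATP synthesis, and the ribosomal and transfer RNAs used to translate them inside the organelle. Both of its strands are transcribed into long precursors, which are cut mainly at the transfer RNAs into separate RNAs, and most messenger RNAs then receive a short poly(A) tail. All other subunits of the chain are encoded in the nucleus and imported, so each complex except complex II draws on both genomes.

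Several messenger RNAs end without a complete stop codon in the DNA, and the tail supplies the missing bases. The 3′ ends are shown because they separate the gene models that stop inside a codon from those that do not. Each line gives the last 30 bases of the gene from GENCODE release 29 on GRCh38, 5′ to 3′, with the final codon, or what the DNA holds of it, in capitals. The 9 messenger RNAs listed as down come first.
MT-CO1 (chrM:7416-7445, plus strand): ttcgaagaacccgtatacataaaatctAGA
MT-CO2 (chrM:8240-8269, plus strand): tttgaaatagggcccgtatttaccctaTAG
MT-ATP8 (chrM:8543-8572, plus strand): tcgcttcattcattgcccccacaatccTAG
MT-ND3 (chrM:10375-10404, plus strand): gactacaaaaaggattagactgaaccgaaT
MT-ND4L (chrM:10737-10766, plus strand): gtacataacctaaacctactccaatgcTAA
MT-ND4 (chrM:12108-12137, plus strand): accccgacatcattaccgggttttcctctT
MT-ND5 (chrM:14119-14148, plus strand): ctcatcctaaccctactcctaatcacaTAA
MT-ND6 (chrM:14149-14178, minus strand): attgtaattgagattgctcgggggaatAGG
MT-CYB (chrM:15858-15887, plus strand): taattgaaaacaaaatactcaaatgggccT

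The 4 messenger RNAs that were not listed end as follows.
MT-ND1 (chrM:4233-4262, plus strand): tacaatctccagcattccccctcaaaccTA
MT-ND2 (chrM:5482-5511, plus strand): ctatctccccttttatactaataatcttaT
MT-ATP6 (chrM:9178-9207, plus strand): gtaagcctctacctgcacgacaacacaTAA
MT-CO3 (chrM:9961-9990, plus strand): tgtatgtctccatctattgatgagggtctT

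Among the listed messenger RNAs, 3 (MT-ND3, MT-ND4 and MT-CYB) end inside a codon and 6 end on a whole codon. Among those not listed, 3 (MT-ND1, MT-ND2 and MT-CO3) end inside a codon and MT-ATP6 ends on a whole one. The last base of MT-ATP6, at chrM:9207, is also the first base of MT-CO3. Ends of both kinds thus occurred among the gene models of listed and unlisted genes, though for the unlisted ones the whole codon rests on MT-ATP6 alone.

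All 9 listed messenger RNAs were in the down list and MT-RNR1, the ribosomal RNA of the small mitochondrial ribosomal subunit, was in the up list. The rule took genes because they were listed, and the direction comes from the same comparison of 2 libraries. Over all genes the table listed 25.2% of its 8877 background pathway genes, 17.0% as down and 8.2% as up. Of the 2238 listed genes 67.5% were down, so a down direction was also the common one outside mitochondrial DNA.

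Complex I, the NADH dehydrogenase at the entry of the chain, had 5 of its 7 mitochondrially encoded subunits listed, each as down: MT-ND3, MT-ND4, MT-ND4L, MT-ND5 and MT-ND6. MT-ND1 and MT-ND2 were not listed. MT-CYB, which carries some of the haem groups of complex III and is the single subunit of it made from mitochondrial DNA, was listed as down. Of the 3 core subunits of complex IV, the cytochrome c oxidase, MT-CO1 and MT-CO2 were listed as down and MT-CO3 was not listed. Of the membrane subunits of complex V, the ATP synthase, MT-ATP8 was listed as down and MT-ATP6 was not. Every complex with mitochondrially encoded subunits was therefore represented in the down list.

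MT-RNR1 lies at chrM:648-1601 on the plus strand and is 954 bases long. Its sequence is shown at both ends because it is the member with the opposite direction and has no spacer to its neighbours. It follows the transfer RNA gene MT-TF directly and is followed directly by MT-TV, after which MT-RNR2, the ribosomal RNA of the large subunit, begins. In the second line the capitals are the first bases of MT-TV.
MT-RNR1 5′ end (chrM:648-707): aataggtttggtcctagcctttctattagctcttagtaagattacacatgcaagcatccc
MT-RNR1 3′ end with the start of MT-TV (chrM:1562-1608): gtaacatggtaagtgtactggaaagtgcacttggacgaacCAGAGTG

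MT-RNR2 was not listed, and neither was any of the 22 transfer RNA genes. The annotation holds 37 genes on mitochondrial DNA, so 27 of them were not listed. The table names changed genes only, and it does not show which of these 27 were measured.

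**Figure D1:**
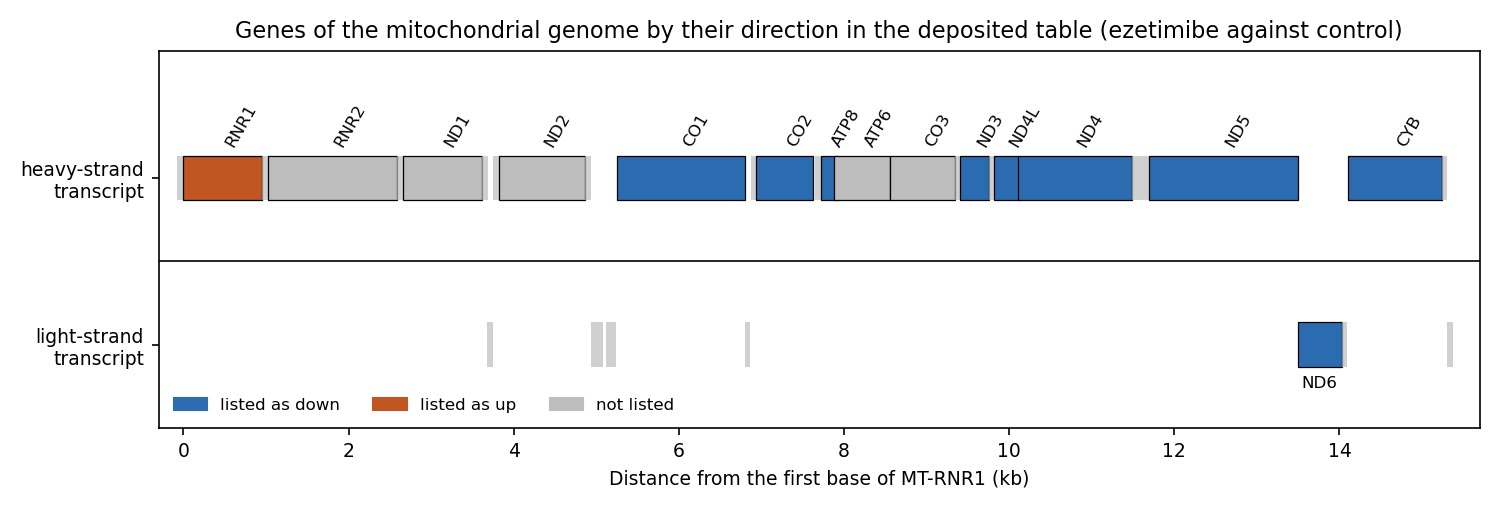
Genes of the mitochondrial genome placed by their distance in kb from the first base of MT-RNR1, with heavy-strand transcripts above the line and light-strand transcripts below; narrow bars without outline are transfer RNA genes, and MT- is left off the names. Colour gives the list in the deposited table: the 9 messenger RNAs listed as down are blue, MT-RNR1, listed as up, is orange, and the 27 genes not listed are grey.

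Along the genome the 4 unlisted messenger RNA genes all lay before MT-ND3. The split used here was placed at MT-ND3, directly after MT-CO3, the last unlisted one. It thus follows the lists themselves, so the counts on its sides are a description, and an effect of position was not tested. From MT-ND3 to MT-CYB all 6 messenger RNA genes were listed as down. From MT-ND1 to MT-CO3, the stretch nearer to the ribosomal RNA genes, 3 of 7 were listed and 4 were not. The map of genes by distance from MT-RNR1 shows the unlisted ones as a pair at each end of this stretch, MT-ND1 with MT-ND2 and MT-ATP6 with MT-CO3.

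Both strands were represented. Of the 12 messenger RNA genes on the plus strand of the annotation, which are cut from the heavy-strand precursor, 8 were listed as down. MT-ND6 (chrM:14149-14673) is the only one on the minus strand and was also listed as down. Its base composition is that of the other strand: G makes up 35.6% and C 7.05% of MT-ND6, whereas G ranged from 6.28% to 16.2% and C from 29.5% to 36.0% over the other 12. The genes MT-ND5 and MT-ND6 meet end to end on opposite strands. The junction is printed to show that no spacer separates them, in plus-strand orientation with the MT-ND6 part in capitals.
MT-ND5 to MT-ND6 (chrM:14125-14155): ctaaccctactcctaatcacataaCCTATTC

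Precursors of the strands run across each other's genes, and the sources used here do not say whether the authors counted reads by strand. Without strand, reads from MT-ND6 and from the antisense RNA over it cannot be told apart.

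Some members share bases with a neighbour, which bears on how separately they were counted. MT-ND4L (chrM:10470-10766) and MT-ND4 (chrM:10760-12137) overlap by 7 bases in different frames and are carried on a single messenger RNA. Both were listed as down. The junction is printed with the shared bases in capitals.
MT-ND4L to MT-ND4 (chrM:10737-10789): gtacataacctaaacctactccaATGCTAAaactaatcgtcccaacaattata

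MT-ATP8 (chrM:8366-8572) and MT-ATP6 (chrM:8527-9207) overlap by 46 bases and are likewise translated from a single messenger RNA. In contrast to MT-ND4L and MT-ND4, this pair was split: MT-ATP8 was listed as down and MT-ATP6 was not listed. The shared bases are printed with the first codon of MT-ATP6 in capitals, and they make up the end of MT-ATP8.
Overlap of MT-ATP8 and MT-ATP6 (chrM:8527-8572): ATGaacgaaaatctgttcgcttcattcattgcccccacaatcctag

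MT-ATP8 is the shortest member, at 207 bases, and MT-ATP6 has 681. The sources used here do not say how reads in the overlap were assigned, and the part of the overlap in the split was not tested. Counting each overlapping pair as 1 gene left 8 genes down and 1 up.

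Mitochondrial DNA has been copied into the nuclear genome many times, and such copies can take or share reads. Of the 13 messenger RNA genes, 12 had an annotated nuclear copy that aligned over at least 98% of their length. MT-ND3 was the exception, with its longest match covering 39.0% of the gene. The copies with the highest alignment score lay on chromosome 1 for 5 genes, on chromosome 5 for 7 and on chromosome 16 for MT-ND1. A long alignment need not be a close one. Among the unlisted messenger RNAs, identity to the highest-scoring copy was 98.5% for MT-ATP6, 98.4% for MT-ND2, 87.5% for MT-CO3 and 75.7% for MT-ND1. This identity does not describe the closest match over short stretches. MT-CO3 and MT-ND1 also held stretches of 100 bases found without mismatch in a nuclear transcript, as given below. For MT-RNR1 no match to a transcript outside mitochondrial DNA was found; the search covered annotated transcripts and not the whole genome.

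By identity of the highest-scoring copy, the closest copies of listed genes were those of the complex IV and V members. MT-CO1 matched MTCO1P12 (chr1:631074-632616) at 98.6% of 1543 aligned positions, and MT-CO2 matched MTCO2P12 (chr1:632757-633438) at 98.0%. MT-ATP8 differed from MTATP8P1 (chr1:633535-633741) at 5 of 207 bases. The substitutions, with the base of MT-ATP8 first, the position counted from its first base, and then the base of the copy, were G27A, C90T, C96T, T138C and G180A. Both are printed whole, with these bases in capitals, to show how little separates a mitochondrial member from its nuclear copy.
MT-ATP8 (chrM:8366-8572): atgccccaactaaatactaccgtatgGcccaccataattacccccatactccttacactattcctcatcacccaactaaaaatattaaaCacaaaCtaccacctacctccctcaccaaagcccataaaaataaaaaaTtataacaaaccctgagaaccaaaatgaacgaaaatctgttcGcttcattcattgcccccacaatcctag
MTATP8P1 (chr1:633535-633741): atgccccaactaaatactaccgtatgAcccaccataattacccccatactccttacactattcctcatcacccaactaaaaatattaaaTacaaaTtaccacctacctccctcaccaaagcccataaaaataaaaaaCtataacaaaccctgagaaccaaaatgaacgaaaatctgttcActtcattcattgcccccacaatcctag

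By the same identity, complex I members and MT-CYB were further from their highest-scoring copies. The order is not the same for short shared stretches, given below, where MT-ND6 stood above MT-ATP8. MT-ND4 matched MTND4P12 at 95.8%, MT-ND6 matched MTND6P4 at 95.0%, MT-ND4L matched MTND4LP30 at 94.9% and MT-ND5 matched MTND5P11 at 93.0%. MT-CYB matched MTCYBP35 at 86.0%. These 5 copies were all on chromosome 5.

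As a measure of how many short reads could fit both places, each gene was cut into every window of 50 bases, and windows found without mismatch in a nuclear transcript on either strand were counted. The share was 49.5% in MT-CO1, 29.0% in MT-CO2, 17.9% in MT-ND6 and 8.23% in MT-ATP8. It was 4.76% in MT-ND5, 3.54% in MT-ND4 and 1.19% in MT-CYB, and no window of MT-ND3 or MT-ND4L was shared. The listed messenger RNAs thus ranged from no shared window to a share of 49.5%.

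In the unlisted messenger RNAs the share was 46.7% in MT-ATP6, 43.6% in MT-ND2, 30.6% in MT-CO3 and 22.1% in MT-ND1. Of the listed messenger RNAs 7 lay below the lowest of these whereas MT-CO2 lay within their range and MT-CO1 above it. With windows of 100 bases a shared window was found in all 4 unlisted genes and in the same 2 of 9 listed genes, at 27.9% of windows in MT-CO1 and 2.39% in MT-CO2. The sources used here do not say how reads that fit several places were counted, and the part of shared sequence in which genes were listed was not tested. MT-RNR1 had no shared window of either length.

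**Figure D2:**
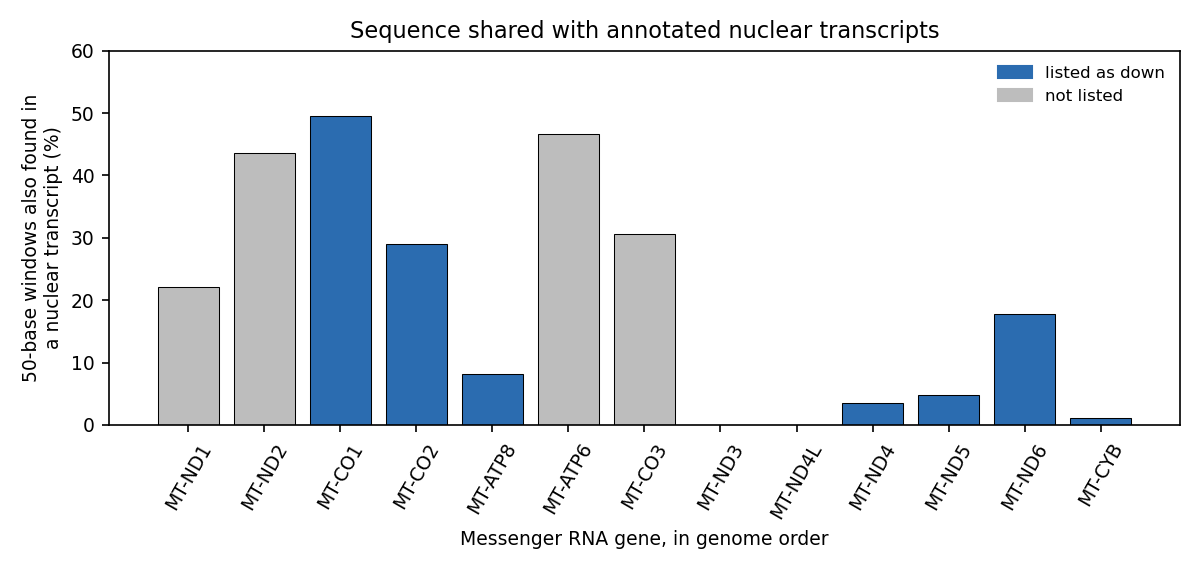
Share (%) of the 50-base windows of each mitochondrial messenger RNA gene that also occur, without mismatch, in an annotated nuclear transcript; genes are in genome order, blue bars are listed as down and grey bars are not listed. The 4 grey bars lie between 22.1% and 46.7%, and 7 of the 9 blue values lie below them, with MT-ND3 and MT-ND4L at 0.

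The members were short and moderately GC-poor for genes of this table. Their length ran from 207 bases for MT-ATP8 to 1812 for MT-ND5, with a median of 819, against a median of 3865 bases for the longest transcript of the other listed genes. That transcript could be of any annotated type and need not be the form the cells made. For RPL18 it was a model of 3844 bases with 1 exon. The length, GC and exon comparisons below share this limit. Their GC content ran from 39.6% in MT-ATP8 to 46.3% in MT-CYB, with a median of 44.6%, against 47.05% for the others. Each of the 10 lay below the median of the others in both measures.

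Direction in the table went with these measures in opposite ways for nuclear genes. Of the 670 other genes within the members' GC range, 84.5% were down. Of the 255 within their length range, 50.2% were down. In the 58 genes within both ranges 41 were down and 17 up, which is 70.7% down and near the 67.5% of all listed genes. MT-RNR1, with 45.5% GC and 954 bases, lay inside the span of the messenger RNAs in both measures.

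**Figure D3:**
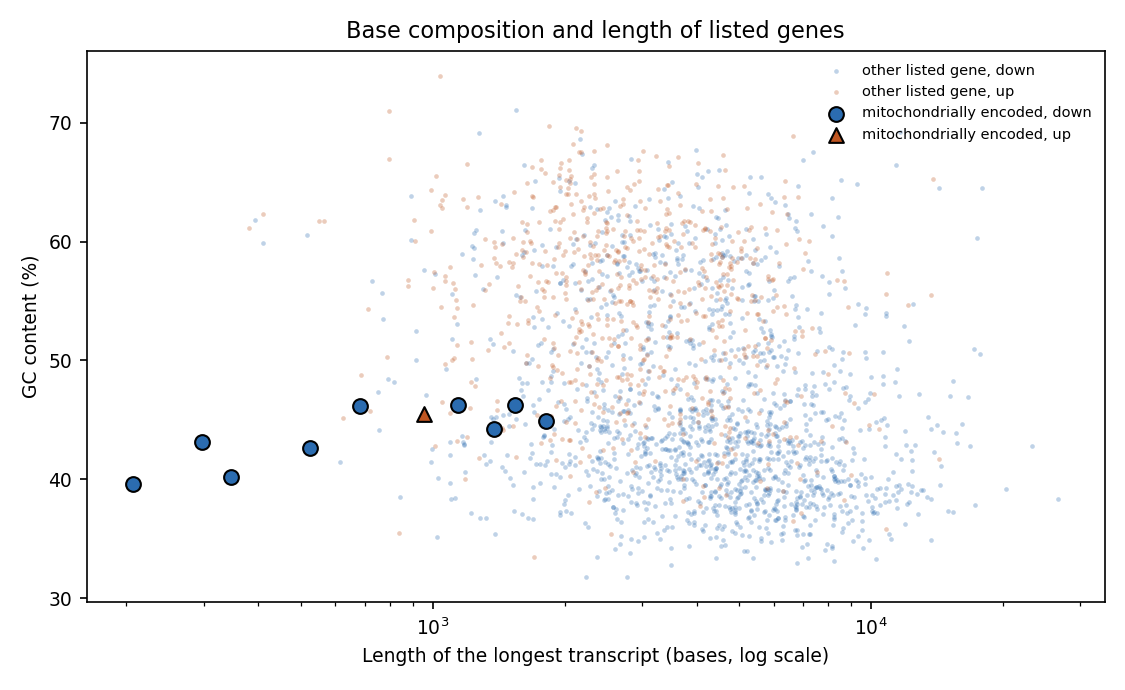
GC content (%) against length in bases (log scale) of the longest GENCODE transcript of each listed gene; large outlined points are the 10 mitochondrially encoded genes and small points the other listed genes, blue for down and orange for up. The members lie between 39.6% and 46.3% GC and between 207 and 1812 bases, at the short end of the table.

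The members appeared in 11 of the 327 pathway rows. The 9 messenger RNAs were all in the rows Oxidative phosphorylation, Thermogenesis, Parkinson disease and Metabolic pathways. MT-ATP8, MT-CO1, MT-CO2 and MT-CYB were also in those of Huntington disease and Alzheimer disease, and the complex I members in that of Retrograde endocannabinoid signaling. The Cardiac muscle contraction and fatty liver disease rows held MT-CO1, MT-CO2 and MT-CYB. MT-RNR1 was in the Ribosome row and in that of Ribosome biogenesis in eukaryotes. These rows repeat the same genes and are not separate results.

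Among these rows the members weighed most in Oxidative phosphorylation, where they were 9 of 31 listed genes (29.0%), and in Parkinson disease, where they were 9 of 33 (27.3%). With them the Oxidative phosphorylation row had 12 genes up and 19 down; without them it had 12 up and 10 down, or 45.5% down. Of these 12 up, 9 were subunits of the vacuolar proton pump, which is not part of the respiratory chain, and 3 were nuclear chain subunits. Of the 10 down, 2 were pump subunits and 6 were nuclear chain subunits. The Parkinson disease row went from 72.7% to 62.5% down without them. In the Thermogenesis row, where they were 9 of 66, the share changed from 81.8% to 78.9%.

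Pathway enrichment came from the authors. The rich factor divides a pathway's share of the changed genes by its share of the background genes. It was 0.778 for Oxidative phosphorylation, with p = 1.0, in the authors' deposited table. It was 0.813 for Parkinson disease and 1.03 for Thermogenesis (p = 0.726) in the authors' deposited table. The row Metabolic pathways, in which the members were 9 of 392 listed genes, was the only one of the 11 with an authors' p below 0.05, at p = 0.026 and q = 0.116 in the authors' deposited table. These p-values take genes as units.

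**Figure D4:**
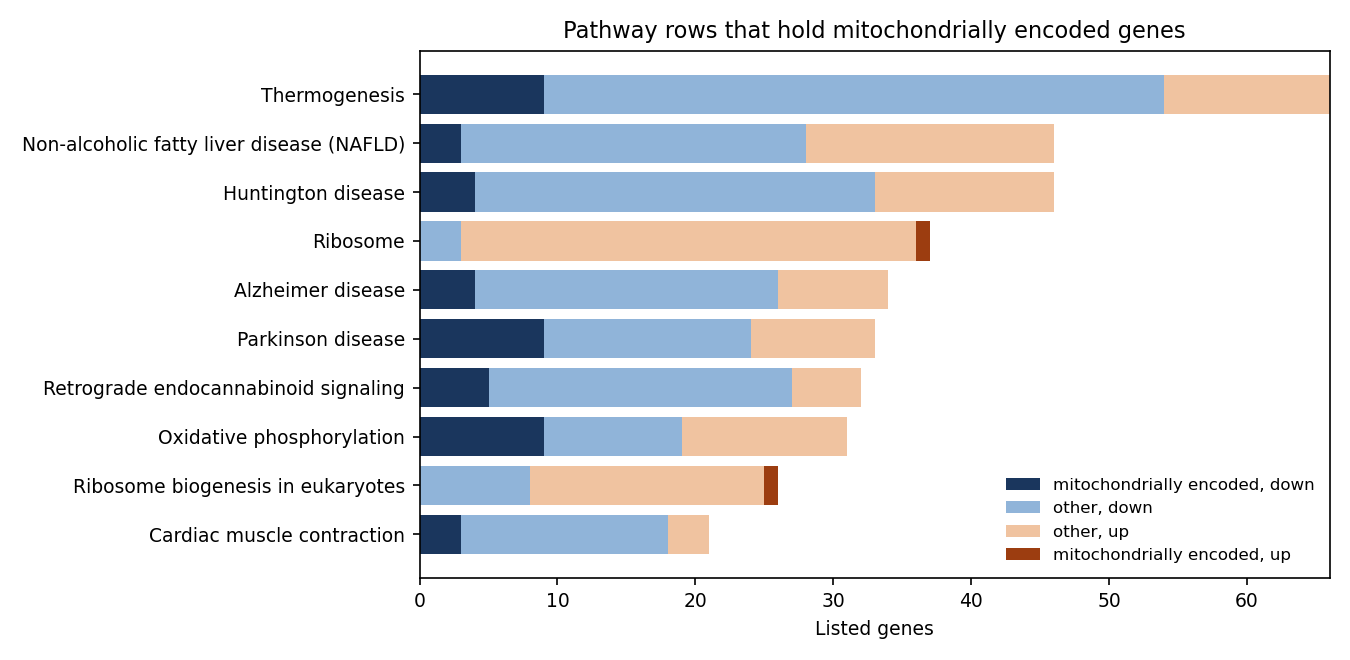
Number of listed genes in 10 of the 11 pathway rows that hold mitochondrially encoded genes, split into mitochondrially encoded and other genes and into down and up; Metabolic pathways, with 392 listed genes, is left out for scale. In the Oxidative phosphorylation row the 9 messenger RNAs stand beside 10 other genes down and 12 up, of which 2 and 9 are vacuolar proton pump subunits. MT-RNR1 is the small dark orange end of both ribosome rows.

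The nuclear genes of the same complexes were listed in both directions. Of 86 nuclear genes in the list of complexes I to V, 9 were listed, 6 as down and 3 as up. This is 66.7% down, near the 67.5% of all listed genes. CYCS and ATP5IF1, which are not subunits, are counted in this list. For complex I the accessory subunits NDUFA5 and NDUFB3 were down and NDUFA11 and NDUFB9 up, out of 37. For complex II, which has no mitochondrially encoded subunit, the flavoprotein SDHA and the membrane anchor SDHD were down, out of 4. For complex IV the subunits COX6C and COX7B were down and COX7A2L, which helps to join complexes into supercomplexes, was up, out of 19.

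No nuclear subunit of complex III (10 genes) or of complex V (16 genes) was listed, whereas MT-CYB and MT-ATP8 of the same complexes were. In all, 9 of 13 mitochondrially encoded subunit genes (69.2%) and 9 of 86 nuclear genes of the list (10.5%) were listed. Over all background pathway genes the share was 25.2%, and how many of the 86 lie in that background was not known. No test of the difference was made since the members were chosen for being listed. Among factors that assemble the complexes 7 of 39 were listed: the copper-insertion protein COX11, the insertase COX18, NDUFAF5 and NDUFAF7 as down, and NDUFAF2, NDUFAF3 and the copper chaperone SCO2 as up. The remaining listed genes of the Oxidative phosphorylation row were 11 subunits of the vacuolar proton pump, 9 of them up, and the mitochondrial pyrophosphatase PPA2, which was down.

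**Figure D5:**
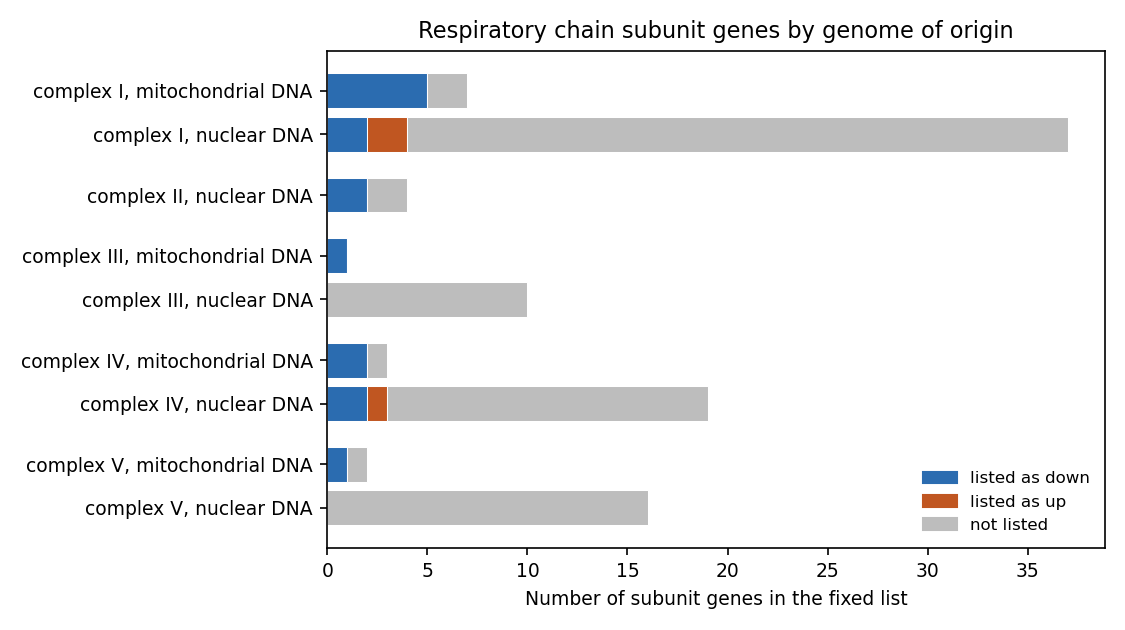
Number of respiratory chain subunit genes in each complex, separately for genes on mitochondrial and nuclear DNA, coloured by the list they were in (blue down, orange up, grey not listed). Mitochondrial genes were listed as down for 5 of 7, 1 of 1, 2 of 3 and 1 of 2 subunits of complexes I, III, IV and V, whereas most nuclear subunits were not listed.

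Among nuclear genes that copy, transcribe and process mitochondrial DNA and RNA, few were listed; their directions stand beside the 67.5% down of all listed genes. TFAM, which packages mitochondrial DNA and activates its promoters, was listed as down and was the only listed gene of 9 in the transcription list. Of 20 genes of RNA processing and decay only PNPT1, the polynucleotide phosphorylase that degrades mitochondrial RNA, was listed, also as down. Of 15 genes of mitochondrial DNA replication and nucleotide supply, DNA2, RRM2B and the thymidine kinase TK2 were down and the topoisomerase TOP3A was up; DNA2, RRM2B and TOP3A also act in the nucleus. The coactivator PPARGC1A and the deacetylase SIRT3 were the 2 listed of 11 regulators of mitochondrial biogenesis, and both were down.

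Genes of the mitochondrial ribosome, the setting of MT-RNR1, were split. Of 81 mitochondrial ribosomal protein genes 4 were listed, MRPL2 and MRPL21 as up and MRPL13 and MRPL19 as down. All 4 belong to the large subunit (49 genes in the list), whereas MT-RNR1 belongs to the small subunit. None of the other 32 genes of this list, most of them for small-subunit proteins, was listed. In the Ribosome row itself MT-RNR1 stood with 33 other genes up and 3 down, most of them proteins of the cytosolic ribosome, and in that of Ribosome biogenesis in eukaryotes with 17 others up and 8 down. Which unlisted genes of these lists lie in KEGG pathways was not known, so their listed shares could not be compared directly with the 25.2% of the background.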

How the data were processed

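RNA of 1 control and 1 ezetimibe library was sequenced. HISAT2 2.0.4 and StringTie 1.3.0 are named in the submitters' processing notes. The build, annotation, thresholds and library selection were not given in the sources used here. What the authors deposited is 1 table, named for edgeR and KEGG enrichment. Per the file headers it holds numbers of genes, a rich factor (a ratio made by the authors), p-values and q-values by the authors, and gene lists, with no read counts. Distinct genes were counted once by Ensembl ID, and the fixed lists were matched by the table's symbols and then through gene names and IDs. The members and lists were chosen with earlier results of these data known. Named genes are all members and unlisted mitochondrial genes and, from each other list, all listed genes, since none had more than 12; the list of transfer RNA charging enzymes is not reported here. Lengths, GC content, coordinates and sequences come from GENCODE release 29 (GRCh38), for 2237 of 2238 genes by longest transcript. Nuclear copies were sought with blastn 2.17.0 (word size 28, e-value 1e-20) in all other GENCODE transcripts; the best by bit score is named. Counting was tested on simulated data. Python 3.11.15 and pandas 2.3.3 were used.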

Additional observations from a re-analysis of the deposited data

How the results depend on the processing

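The table has no values per library, so no replicate could be left out, and no paired analysis was possible because each group has 1 library. The 9 mitochondrial genes listed as down were all found when only the rows with an authors' p below 0.05, only rows outside diseases, or only genes under at most 20 pathways were read; MT-RNR1 was lost in the first of these. These readings could not have dropped the 9. All are in Metabolic pathways, a row outside diseases with an authors' p below 0.05, and none is under more than 8 pathways. The share of all listed genes in the down list stayed between 67.5% and 69.3%. Reading only rows with an authors' p below 0.05 left 0 mitochondrial ribosomal protein genes down, as none was listed there. Taking all other genes of the Oxidative phosphorylation row in place of the fixed subunit list gave 10 genes down and 12 up. Subunits of the vacuolar proton pump were 2 of these 10 and 9 of these 12. For other genes like the members, the 70.7% down in both ranges became 84.5% with the GC range alone and 50.2% with the length range alone, and 57.1% in the 70 genes whose longest transcript has 1 exon, a set chosen after seeing the data. A direction read from the full gene list could not be had, since that list carries none. Depth is unknown, so it cannot be said how large a change in any member the libraries could show.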

Other observations

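Other lists of mitochondrial function leaned in different directions. Of 14 genes of the mitochondrial pore and of proteins released through it, the pore former BAK1, the caspase activators DIABLO and HTRA2, the cyclophilin PPIF and the ADP/ATP carrier SLC25A6 were listed as up, and the outer membrane channel VDAC3 as down. Of 18 genes of fusion, fission and mitophagy, the fission adaptor FIS1 and the autophagy receptors OPTN and SQSTM1 were up, and the fission motor DNM1L, the fusion protein MFN1 and the kinase TBK1 down. Of 19 genes in a list of stress responses, 7 were up, namely ATF4, CHAC1, DDIT3, EIF2AK3, GDF15, HSPA9 and TRIB3, and the chaperonin HSPD1 was down. This list includes genes that are not particular to mitochondria, such as DDIT3 and EIF2AK3. Its other 11 genes, among them CLPP, DELE1, LONP1 and OMA1, were not listed. HSPA9 and HSPD1, which both fold proteins in the mitochondrial matrix, were thus in opposite lists. Of 7 genes that sense or respond to double-stranded RNA and DNA, DDX58, EIF2AK2 and TLR3 were listed, all as down. As for the members, these are directions in a comparison of 2 libraries in which 67.5% of listed genes were down, with no test.

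Among markers of other cell types, the cholangiocyte genes SOX9 and SPP1 and the fibroblast genes ACTA2, COL1A1 and COL1A2 were listed as down, the macrophage gene CD68 as up, and no endothelial marker was listed. The cholangiocyte, fibroblast, endothelial and immune lists hold 4 markers each, and 67.5% of all listed genes were down.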
